A study of Mus musculus with 3 samples.

Results

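The 9 genes described here encode parts of tight junctions and the keratins of simple epithelia. They were chosen by symbol: *Cldn4*, *Cldn6*, *Cldn7*, *Ocln*, *Tjp1*, *Tjp3*, *Krt8*, *Krt18* and *Krt19*. All 9 were listed in each of the 3 gene tables, among 17633 genes with a read in any library. The tables come from the endoderm, the mesoderm and the epiblast of E7.5 embryos of ICR mice, with no genetic change or treatment. Each germ layer was separated from the embryonic region by enzyme and hand dissection and is 1 library of RNA pooled over many embryos, and the epiblast includes the neuroectoderm and the primitive streak. The differences below therefore have no replicate check, and every test compares 2 libraries rather than the germ layers as conditions. In such bulk RNA, fewer cells of a type and less RNA per cell cannot be told apart.

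Tight junctions are the seal near the apical edge of an epithelial sheet. Claudins and occludin span the membrane and meet the same proteins of the next cell, and the zonula occludens proteins beneath them, encoded by the *Tjp* genes, tie them to actin. Keratins 8, 18 and 19 form the intermediate filaments of simple epithelia, in which a type II keratin such as keratin 8 always pairs with a type I keratin such as keratin 18 or 19. During gastrulation, epiblast cells leave an epithelium at the primitive streak and become mesenchymal mesoderm, and transcription factors of the Snail and Zeb families are known to repress epithelial genes in that step.

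The authors gave for each gene its uniquely mapped reads and its RPKM, which scales the reads by gene length and library size so that genes can be compared. The endoderm, mesoderm and epiblast libraries held 41.7 M, 40.8 M and 42.7 M reads. Where values are listed without a library name, they stand in that order. All 6 visceral endoderm markers and all 4 definitive endoderm markers were highest in the endoderm library, all 6 mesoderm markers in mesoderm, and 5 of 6 epiblast markers in epiblast, with *Fgf5* the exception at 6.64 RPKM in endoderm and 6.32 in epiblast. The 6 visceral endoderm markers summed to 4983, 7.36 and 4.81 RPKM. Of the 10 trophoblast markers, 7 had reads, summing to 37.4, 231.9 and 39.4 RPKM, and *Tpbpa*, *Prl3d1* and *Prl2c2* had no read. Without *Hand1*, which is also a mesoderm marker, the other 6 summed to 36.4, 10.1 and 6.20 RPKM, the order of the keratins, with 4 of them highest in endoderm, among them *Plac1* at 19.9, 6.25 and 0.569 RPKM and *Esx1* at 7.11, 0.0606 and 0.130. The 5 parietal endoderm markers summed to 427.0, 210.1 and 103.0 RPKM, the same order as the keratins. *Sparc* and *Col4a1* were the largest parts in endoderm and mesoderm, and *Sparc* and *Lamb1* in epiblast. *Thbd* was highest in mesoderm, at 0.149, 1.61 and 0.107 RPKM. The part of trophoblast and parietal endoderm RNA in the keratin levels was not tested. Decidua markers summed to 1.73 RPKM at most and primitive erythroid markers to 4.44 RPKM at most, with *Prl8a2*, *Prl3c1*, *Hbb-y* and *Hba-x* at no read.

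The 9 genes fell into 3 patterns. *Cldn4*, *Cldn6*, *Cldn7*, *Ocln* and *Tjp3* were highest in endoderm, lower in epiblast and at a few percent or less of the endoderm level in mesoderm. *Krt8*, *Krt18* and *Krt19* were also highest in endoderm, but mesoderm came second and epiblast last. *Tjp1* was nearly level. Throughout, a gene met the criteria of the study in a pair of libraries when its RPKM exceeded 5 in 1 of them, the fold exceeded 2 and the FDR was below 0.001 (Audic-Claverie exact test of the reads, Benjamini-Hochberg adjusted). Tested genes are those with an RPKM above 5 in either library of the pair, and "called" means that all 3 criteria were met. At first mention, folds of the 9 genes are given with their exact 95% interval, which covers counting error only. Folds of other genes are given without one.

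*Cldn6* had the highest RPKM of the claudins in endoderm and in epiblast. It lies on chromosome 17 from 23679249 to 23682446 on the plus strand of GRCm38, had 32163 endoderm, 207 mesoderm and 6182 epiblast reads, and its RPKM was 507.3, 3.33 and 95.1. Endoderm and epiblast both lay far above mesoderm, and the reads covered at least 95.1% of the gene length in each library. The RPKM was 152.4-fold (132.9 to 175.5) higher in endoderm than in mesoderm, 28.6-fold (24.9 to 33.0) higher in epiblast than in mesoderm and 5.33-fold (5.19 to 5.48) higher in endoderm than in epiblast. *Cldn6* met the criteria in all 3 pairs. By RPKM it ranked 136 of 16385 in endoderm, 780 of 16430 in epiblast and 8807 of 16201 in mesoderm.

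*Cldn7* (chromosome 11, 69964779 to 69967885, plus strand) kept the same order at a lower level. It had 5824 endoderm, 47 mesoderm and 1247 epiblast reads, at 106.7, 0.878 and 22.3 RPKM. The folds were 121.5 (91.3 to 165.6) between endoderm and mesoderm, 25.4 (18.97 to 34.7) between epiblast and mesoderm and 4.79 (4.50 to 5.09) between endoderm and epiblast, and all 3 pairs met the criteria. *Cldn4* (chromosome 5, 134945119 to 134946934, minus strand) was the least abundant of the 3 claudins, with 903, 20 and 529 reads and 11.9, 0.268 and 6.78 RPKM. Mesoderm was again far below the others, by 44.3-fold (28.5 to 72.8) against endoderm and 25.3-fold (16.2 to 41.8) against epiblast. Endoderm and epiblast were closer for *Cldn4* than for the other claudins, at 1.75-fold (1.57 to 1.95), which did not meet the criteria.

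*Ocln*, which encodes occludin, lies on chromosome 13 from 100496507 to 100552718 on the minus strand. It had 1730 endoderm, 33 mesoderm and 369 epiblast reads, and 13.01, 0.253 and 2.71 RPKM. The 33 reads in mesoderm covered 41.8% of the gene length, against 93.9% covered in endoderm. Endoderm exceeded mesoderm by 51.4-fold (36.5 to 74.9) and epiblast by 4.81-fold (4.29 to 5.39), and both met the criteria. Epiblast exceeded mesoderm by 10.7-fold (7.48 to 15.8), but neither library reached an RPKM of 5, so this pair was not counted.

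The scaffold genes *Tjp1* and *Tjp3* had different patterns. *Tjp1*, which encodes ZO-1 and lies on chromosome 7 from 65296165 to 65527781 on the minus strand, had 14611 endoderm, 11710 mesoderm and 13965 epiblast reads, at 49.7, 40.6 and 46.4 RPKM. Its largest fold was 1.22 (1.19 to 1.25), between endoderm and mesoderm, and it met the criteria in no pair. *Tjp3*, which encodes ZO-3 and lies on chromosome 10 from 81273207 to 81291581 on the minus strand, had 1183 endoderm, 7 mesoderm and 342 epiblast reads, at 9.35, 0.0564 and 2.64 RPKM. Its 7 mesoderm reads covered 20.7% of the length. Endoderm was 165.7-fold (80.2 to 413.1) above mesoderm and 3.55-fold (3.14 to 4.01) above epiblast, and both pairs met the criteria. With a pseudocount of 1, the log2 ratio of endoderm over mesoderm fell from 7.373 to 3.293. Epiblast was 46.7-fold (22.4 to 117.1) above mesoderm, without either library reaching an RPKM of 5. Exons of *Tjp3* overlap those of *Apba3* on the opposite strand, and the use of strand in counting is not given in the sources used here.

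*Krt18* and *Krt8* had the highest RPKM of the 9 genes in endoderm and in mesoderm, and *Krt19* was well below them. *Krt8* (chromosome 15, 101996698 to 102004482, minus strand) had 39279 endoderm, 14313 mesoderm and 3549 epiblast reads, at 522.4, 194.1 and 46.0 RPKM. Mesoderm thus lay between the other libraries, 2.69-fold (2.64 to 2.74) below endoderm and 4.22-fold (4.06 to 4.38) above epiblast. Endoderm was 11.3-fold (10.96 to 11.7) above epiblast, and *Krt8* met the criteria in all 3 pairs. By RPKM it ranked 133, 362 and 1687 among the genes of the 3 libraries. A processed pseudogene, *Krt8-ps*, matches 941 bases of the *Krt8* transcript at 98.6% identity, and exons of the long noncoding RNA *Gm36026* overlap *Krt8* on the opposite strand. For *Krt18*, the processed pseudogene *Gm5200* matches 1267 bases at 90.5% identity. Reads shared with such copies may not have counted as unique.

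*Krt18* (chromosome 15, 102028180 to 102032027, plus strand) had 31539 endoderm, 9197 mesoderm and 3149 epiblast reads, at 540.8, 160.8 and 52.7 RPKM. The order of the libraries was that of *Krt8*, with folds of 3.36 (3.29 to 3.44) between endoderm and mesoderm, 10.3 (9.90 to 10.7) between endoderm and epiblast and 3.05 (2.93 to 3.18) between mesoderm and epiblast, all within the criteria. *Krt19* (chromosome 11, 100140810 to 100148665, minus strand) was lower, with 3144, 421 and 221 reads and 50.02, 6.83 and 3.43 RPKM. It was 7.32-fold (6.61 to 8.13) higher in endoderm than in mesoderm and 14.6-fold (12.7 to 16.8) higher than in epiblast. The 1.99-fold (1.69 to 2.35) difference of *Krt19* between mesoderm and epiblast lay just under the fold criterion.

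**Figure D1:**
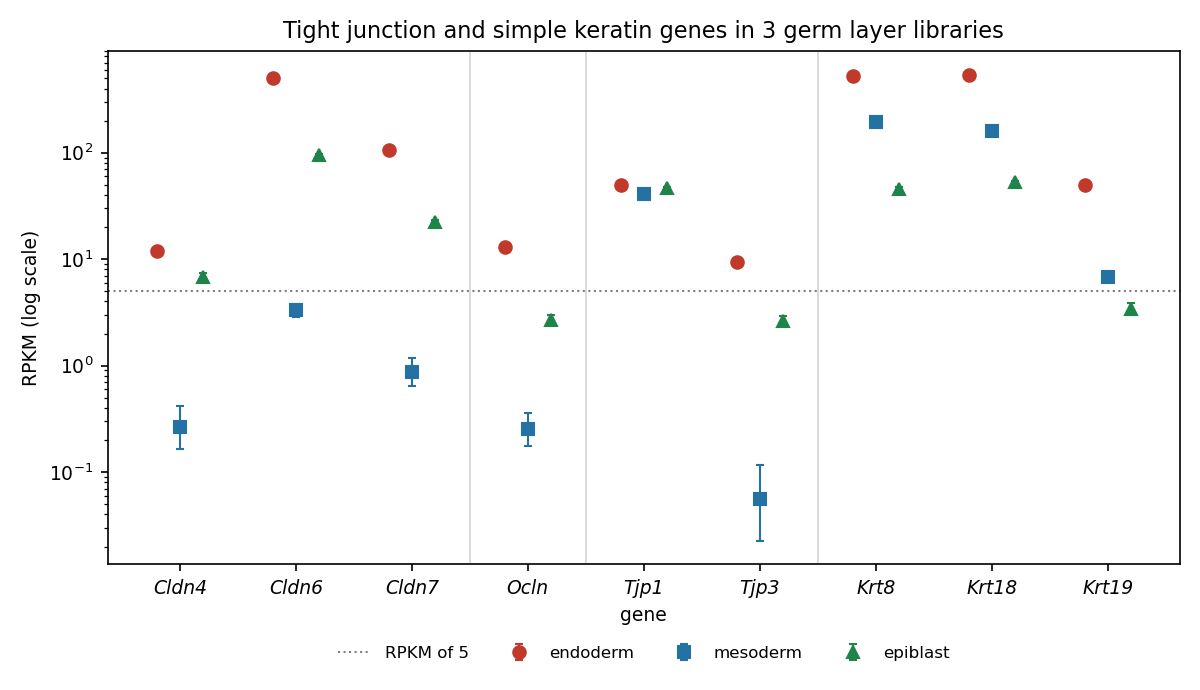
RPKM (log scale) of the 9 genes in the endoderm, mesoderm and epiblast libraries, 1 point per library with the exact 95% counting interval; the dotted line is an RPKM of 5. Mesoderm is lowest for the 3 claudins, *Ocln* and *Tjp3*, second for the 3 keratins, and level with the others for *Tjp1*.

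The type II and type I keratins were similar in RPKM within each library. The ratio of *Krt8* to the sum of *Krt18* and *Krt19* was 0.884 in the endoderm library, 1.16 in the mesoderm library and 0.821 in the epiblast library. The RPKM of *Krt18* over that of *Krt19* was 10.8, 23.5 and 15.4. *Krt8* and *Krt18* start 23.7 kb apart on opposite strands with no protein-coding gene between. The 3 keratins were also set against the 5 junction genes that were low in mesoderm, *Cldn4*, *Cldn6*, *Cldn7*, *Ocln* and *Tjp3*. The summed RPKM of the keratins was 1.72 times that of the 5 genes in endoderm, 0.789 times in epiblast and 75.6 times in mesoderm. The 5 genes were picked for a low mesoderm level, so a large mesoderm ratio follows from the choice. *Tjp1*, which was left out, had 40.6 RPKM in mesoderm.

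Between endoderm and mesoderm, 8 of the 9 genes met the criteria, all higher in endoderm, against 14.4% of all 8867 tested genes that were called higher in endoderm and 8.56% that were called higher in mesoderm, or 23% in all. *Tjp1* was the exception. The median log2 ratio of endoderm over mesoderm was 5.47 over the 9 genes and -0.10 over all tested genes. In mesoderm the 5 junction genes stood at 0.603% to 2.26% of their endoderm RPKM and the keratins at 13.7% to 37.2%, while the 6 visceral endoderm markers stood at 0.0375% to 1.10% and the 4 definitive endoderm markers at 1.71% to 34.4%. The range of the junction genes overlapped those of both marker lists. The range of the keratins overlapped that of the definitive endoderm markers only through *Cer1* (137.9 RPKM in endoderm and 47.4 in mesoderm). The median of the 4 definitive endoderm markers was 2.85%. The part of endoderm RNA in these mesoderm values was not tested. With RPKM above 1 in place of 5, 8 of the 9 were called against 28.4% of genes, and with a fold above 4 the count was 6 against 10.6%. When a biological coefficient of variation was assumed, as edgeR allows without replicates, its exact test called 7 of the 9 at 0.2, against 13.5% of tested genes, and 5 at 0.4, against 4.36%. *Krt8* was lost at 0.2 and all 3 keratins at 0.4.

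Between endoderm and epiblast, 7 of the 9 met the criteria, all higher in endoderm, where 15.7% of 8843 tested genes were called in that direction, 8.94% higher in epiblast and 24.6% in all. *Cldn4* and *Tjp1*, at 1.75-fold and 1.07-fold (1.05 to 1.10), were not called. The median log2 ratio of endoderm over epiblast was 2.27 over the 9 genes, against -0.08 over all tested genes. In epiblast the keratins stood at 6.86% to 9.74% of their endoderm RPKM, while the 6 visceral endoderm markers stood at 0.0150% to 0.729% and the 4 definitive endoderm markers at 0.478% to 8.32%. The part of endoderm RNA in the epiblast values was not tested. The keratins had the largest folds and *Tjp3* the smallest among those called. The count was 7 against 29.8% of genes with RPKM above 1, and 6 against 10.2% with a fold above 4. The exact test of edgeR called 7 of the 9 at a coefficient of 0.2, against 14% of tested genes, but 0 at 0.4, against 3.74%, where the lowest adjusted p was 0.00105 for *Krt19*.

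Mesoderm and epiblast split the genes. *Cldn4*, *Cldn6* and *Cldn7* were higher in epiblast and *Krt8* and *Krt18* higher in mesoderm, so that 5 of the 9 met the criteria, where 5.02% of 8340 tested genes were called higher in epiblast and 5.3% higher in mesoderm, 10.3% in all. The RPKM exceeded 5 in either library for 7 of the 9. The 4 not called were *Tjp1* (1.14-fold, 1.11 to 1.17, higher in epiblast), *Krt19* at 1.99-fold, and *Ocln* and *Tjp3*, which had large folds at low RPKM. With RPKM above 1 in place of 5, *Ocln* and *Tjp3* met the criteria as well and 7 of the 9 were called, against 15.9% of tested genes. A fold above 4 left 4 against 4% of tested genes. The exact test of edgeR called 4 of the 9 at a coefficient of 0.2, against 5.31% of tested genes, without *Krt18*, and the 3 claudins at 0.4, against 0.719%.

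**Figure D2:**
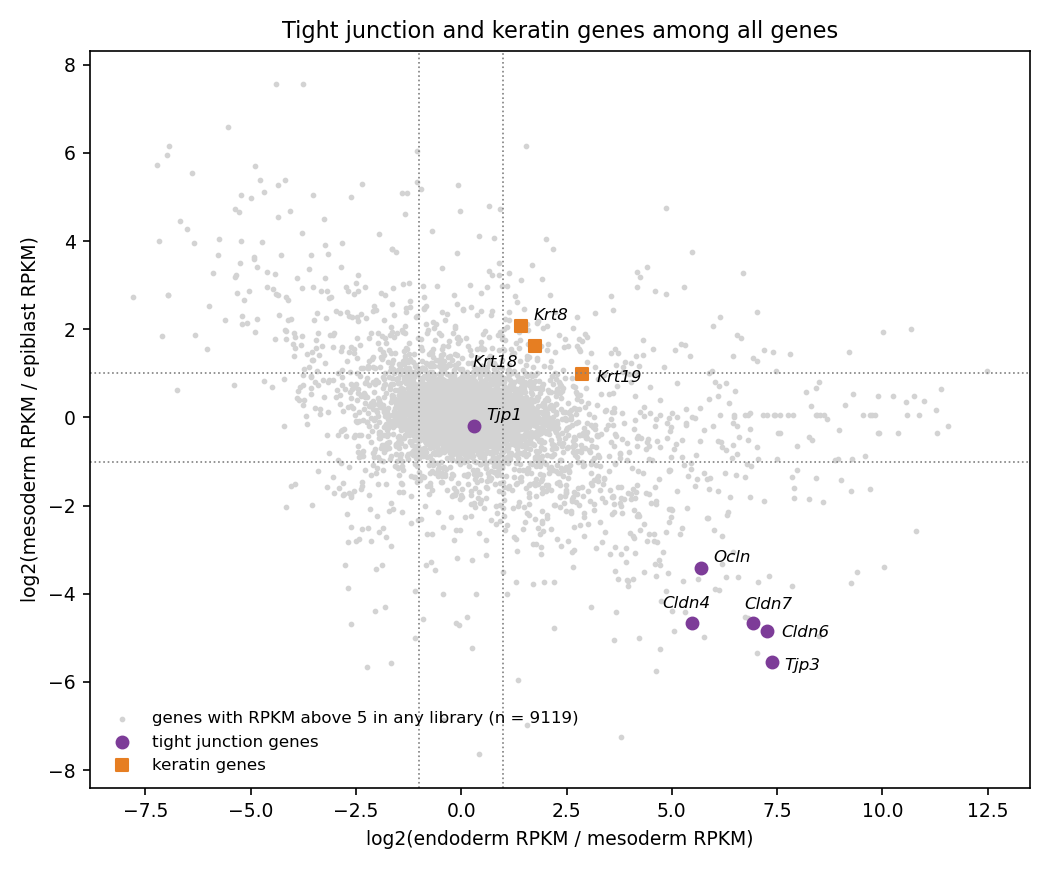
Each grey point is 1 of 9119 genes with an RPKM above 5 in any library, by log2 RPKM ratio of endoderm over mesoderm (x) and of mesoderm over epiblast (y); a library with 3 reads or fewer is set to 3 reads, and dotted lines mark 2-fold. *Cldn4*, *Cldn6*, *Cldn7*, *Ocln* and *Tjp3* lie at the lower right, the keratins at the upper right and *Tjp1* near the centre.

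Among the other claudins, 16 had a read in any library and 3 had an RPKM above 5. *Cldn2*, which forms cation pores in leaky epithelia, had 9436 endoderm, 206 mesoderm and 16 epiblast reads, at 73.6, 1.64 and 0.122 RPKM. Unlike the 3 claudins above, *Cldn2* had more reads in mesoderm than in epiblast. *Cldn9*, which starts 4.78 kb from *Cldn6* on the opposite strand of chromosome 17, had 390, 4 and 51 reads and 6.49, 0.0679 and 0.828 RPKM, in the order of *Cldn6*. *Cldn2* and *Cldn9* met the criteria for endoderm against each of the other libraries. *Cldn12*, by contrast, had 14.9, 15.1 and 12.0 RPKM and met them in no pair. Among all claudins, the exact test of edgeR at a coefficient of 0.4 called 5 for endoderm against mesoderm. For endoderm against epiblast it called 1, where 4 had met the criteria.

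Below an RPKM of 5, *Cldn3*, whose start is 39.3 kb from that of *Cldn4*, had 160 endoderm, 8 mesoderm and 152 epiblast reads. *Cldn11* had 62, 121 and 29 reads, with mesoderm highest. Summed over all 19 claudins, the RPKM was 726.4, 24.1 and 142.6, and *Cldn6* made up 69.8%, 13.8% and 66.7% of it. *Cldn12*, with 15.1 RPKM, was the largest part of the mesoderm sum.

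Among the other keratins, 27 had a read and *Krt7* alone reached an RPKM of 5. *Krt7*, a type II keratin of simple and ductal epithelia, had 804 endoderm, 7 mesoderm and 171 epiblast reads, at 12.0, 0.107 and 2.499 RPKM. Its order was that of *Cldn4*, *Cldn6* and *Cldn7* and not that of *Krt8*. Mesoderm was 113-fold below endoderm and 23.4-fold below epiblast, the latter without either library reaching an RPKM of 5. *Krt10* had 0.836, 1.53 and 1.26 RPKM. *Krt23* had 81 endoderm, 2 mesoderm and 0 epiblast reads, where a count of 0 allows up to 3 reads. *Krt8*, *Krt18* and *Krt19* made up 98.6% of the summed keratin RPKM of the endoderm library, 99.1% of that of mesoderm and 94.8% of that of epiblast.

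**Figure D3:**
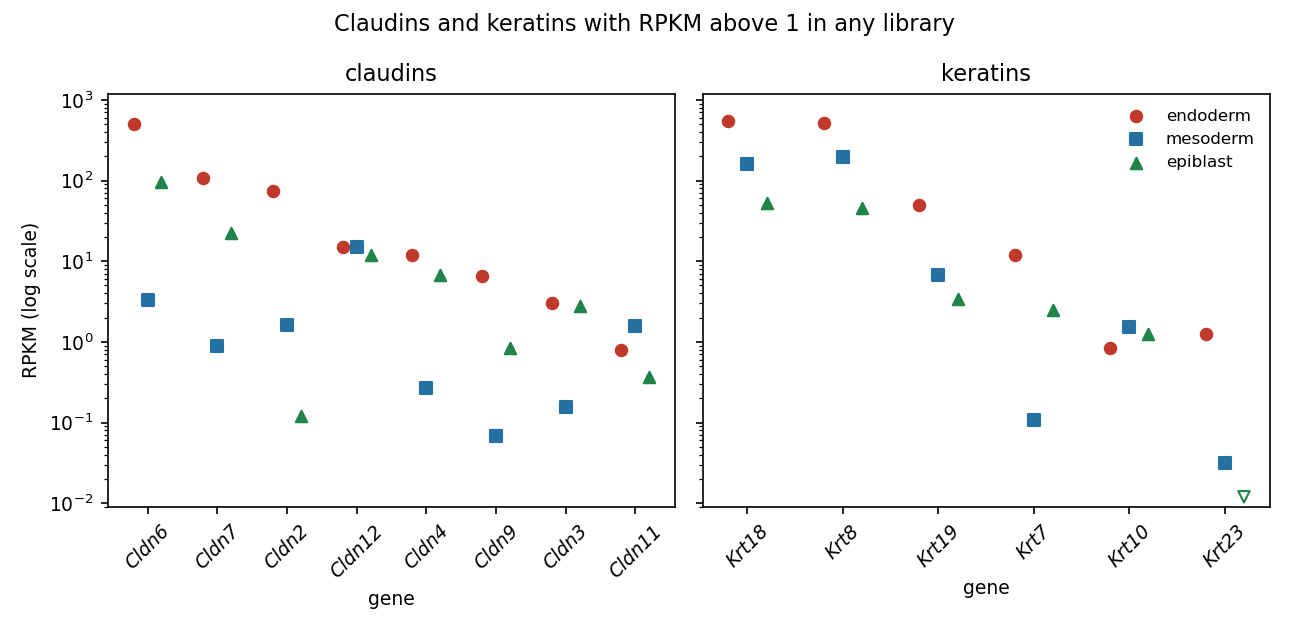
RPKM (log scale) of the claudins (left) and keratins (right) that exceed 1 RPKM in any library, 1 point per library, with an open triangle at the foot of the axis for a library without a read. *Krt7* has mesoderm lowest, as do *Cldn3*, *Cldn4*, *Cldn6*, *Cldn7* and *Cldn9*. *Krt8*, *Krt18* and *Krt19* have epiblast lowest, as do *Cldn2*, *Cldn11* and *Cldn12*.

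Other proteins of the junction were compared through lists written by function. Of 12 further transmembrane proteins, 7 were tested between endoderm and mesoderm, of which 4 were higher in endoderm and 1 in mesoderm, with a median log2 ratio of 2.48. *Crb3*, a Crumbs polarity protein, had 49.6, 0.380 and 15.3 RPKM. *Marveld2*, or tricellulin, had 11.5, 0.448 and 4.24 RPKM, and *Ildr1*, also of tricellular contacts, 5.15, 0.169 and 0.711. *F11r*, or JAM-A, had 55.1, 9.87 and 32.5 RPKM. *Jam3* was the gene in the other direction, at 4.98, 28.5 and 27.4 RPKM. Of 7 tested between endoderm and epiblast, 3 were higher in endoderm and 1 in epiblast, and of 5 tested between mesoderm and epiblast, 2 were higher in epiblast. With *Ocln* included, the calls were 6 for endoderm against mesoderm, 5 for endoderm against epiblast and 2 for mesoderm against epiblast, and 4, 0 and 1 for these 3 pairs in the exact test of edgeR at a coefficient of 0.4.

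Most scaffold, polarity and signalling genes, like *Tjp1*, were not called. Of 24 such genes other than *Tjp1* and *Tjp3*, 22 were tested between endoderm and mesoderm, with 5 higher in endoderm, 3 higher in mesoderm and a median log2 ratio of -0.15, near the -0.10 of all tested genes. Of the same 22, 4 were higher in endoderm and 3 in epiblast when those were compared. Between mesoderm and epiblast, 2 were higher in mesoderm and 2 in epiblast. In each pair, called genes made up a larger part of these 22 than of all tested genes. Over all tested genes the called part was 23%, 24.6% and 10.3% for endoderm against mesoderm, endoderm against epiblast and mesoderm against epiblast. With *Tjp1* and *Tjp3* included, the calls were 9, 8 and 4 in the 3 pairs and fell to 2, 1 and 0 in the exact test of edgeR at a coefficient of 0.4. *Cgn*, the scaffold cingulin, had 34.7, 1.997 and 7.04 RPKM. *Amot*, or angiomotin, had 326, 60.5 and 19.9 RPKM, the order of the keratins. The multi-PDZ scaffolds went opposite ways, each called for endoderm against both other libraries, with *Inadl* at 23.8, 6.47 and 9.23 RPKM and *Mpdz* at 6.62, 18.5 and 19.1.

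Desmosomes are the junctions to which keratin filaments attach. Of the 15 desmosome and plakin genes, 8 were tested between endoderm and mesoderm and 6 were higher in endoderm, and 7 of 9 were higher in endoderm than in epiblast, with none called the other way in these pairs. Between mesoderm and epiblast 1 of 6 was called, *Jup*, at 6.75 and 15.2 RPKM. *Dsp*, or desmoplakin, had 35.6, 17.6 and 9.52 RPKM, the order of the keratins, and *Pkp2* had 21.4, 11.3 and 9.10 RPKM. At an assumed coefficient of 0.4, the exact test of edgeR called 1 desmosome gene between endoderm and mesoderm and 0 in the other pairs. The cadherin *Dsg2* had 58.5, 12.2 and 12.9 RPKM and *Dsc2* 25.7, 2.86 and 3.43.

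Of the 14 other intermediate filament genes, fewer were higher in endoderm than in another library. Of 6 tested between endoderm and mesoderm, 3 were higher in mesoderm and 1 in endoderm, and of 7 tested between endoderm and epiblast, 4 were higher in epiblast and 1 in endoderm. *Vim*, or vimentin, the filament of mesenchymal cells, had 38.4, 243.9 and 86.7 RPKM. Over the summed RPKM of *Krt8*, *Krt18* and *Krt19*, that of *Vim* was 0.0345, 0.674 and 0.849, so the keratins exceeded *Vim* in each library. *Nes* (1.95, 12.9 and 17.2 RPKM), *Ina* (2.39, 7.65 and 29.5) and *Nefl* (0.119, 1.84 and 5.20), filaments of neural cells, were highest in epiblast. The exact test of edgeR at 0.4 called 0, 1 and 0 of these genes for endoderm against mesoderm, endoderm against epiblast and mesoderm against epiblast. *Lmna*, which encodes nuclear lamins, was highest in endoderm at 9.30 RPKM, against 2.15 and 1.20.

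Of 10 adherens junction and epithelial adhesion genes, 9 were tested in each pair. *Cdh1* (181.2, 5.44 and 155.6 RPKM) and *Epcam* (111.6, 7.22 and 94.7 RPKM) were lower in mesoderm than in each of the other libraries. *Cdh1* was 33.3-fold below endoderm and 28.6-fold below epiblast, and *Epcam* 15.5-fold and 13.1-fold. The remaining 7 of 9 met the criteria in no pair, and no gene of the list was called between endoderm and epiblast. The exact test of edgeR at 0.4 called 2, 0 and 1 genes of the list in the 3 pairs.

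**Figure D4:**
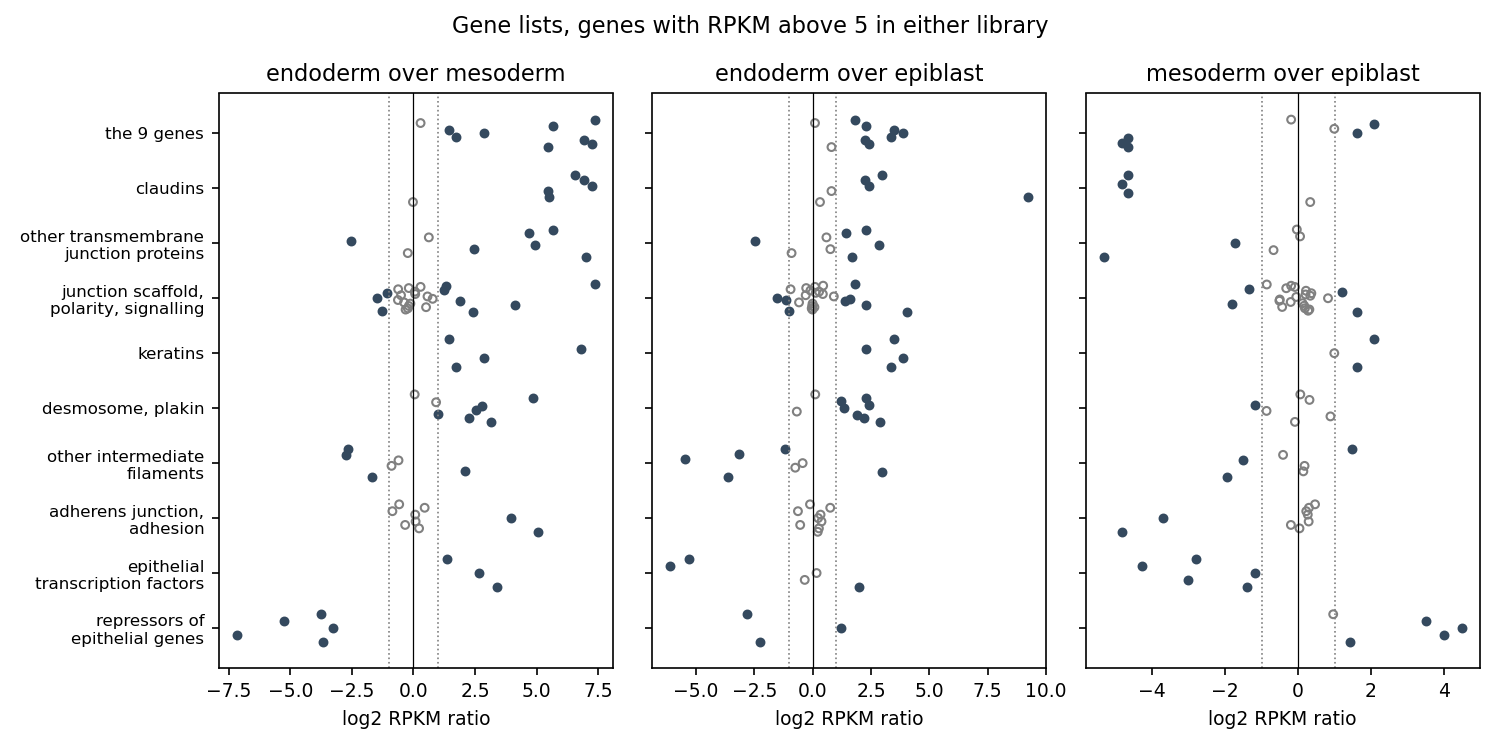
Log2 RPKM ratios of the genes in each list with an RPKM above 5 in either library of the pair, 1 point per gene, filled where the criteria were met and open where not; the solid line is 0 and the dotted lines mark 2-fold. The claudins other than *Cldn12* lie to the right for endoderm over mesoderm, and *Cldn4*, *Cldn6* and *Cldn7* to the left for mesoderm over epiblast, whereas the scaffold list is spread around 0.

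Transcription factors of epithelial genes were tested by the same criteria. Between mesoderm and epiblast 5 of the 11 in the list were tested and all 5 were higher in epiblast, and 3 of 3 were higher in endoderm than in mesoderm. Endoderm and epiblast differed in both directions, with 1 of 5 higher in endoderm and 2 in epiblast. In the exact test of edgeR at 0.4, 2 were called for endoderm against epiblast and 0 in the other pairs. *Grhl2*, a grainyhead-like activator of junction genes, had 5.96, 0.935 and 7.54 RPKM. *Elf3* had 25.6, 2.45 and 6.44 RPKM, and *Klf5* had 5.82, 2.27 and 5.18. *Tfap2a* (0.177, 0.621 and 12.2 RPKM) and *Tfap2c* (0.143, 0.807 and 5.65) were highest in epiblast and lowest in endoderm.

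Of 6 repressors of epithelial genes, 5 were tested between endoderm and mesoderm and all 5 were higher in mesoderm, and 4 of 5 were higher in mesoderm than in epiblast. Of 3 tested between endoderm and epiblast, 2 were higher in epiblast and 1 in endoderm. At 0.4 the exact test of edgeR called 2, 0 and 1 of them in the 3 pairs. *Snai1* had 5.27, 67.3 and 24.9 RPKM. *Snai2* had 0.0922, 13.4 and 0.831 RPKM, *Zeb1* had 0.165, 6.27 and 0.549 and *Twist1* had 5.57, 53.2 and 2.36. *Zeb2*, at 0.738, 10.004 and 5.13 RPKM, was 1.95-fold higher in mesoderm than in epiblast and missed the fold criterion there. All 5 were highest in the mesoderm library, in which *Krt8* had 194.1 and *Krt18* 160.8 RPKM and *Cldn6* had 3.33.

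Snail and Zeb proteins bind the E-box CACCTG. The promoter windows of the RefSeq table (GRCm38.p6) run from 250 bases before to 50 after an annotated start and cover 8 of the 9 genes, not *Krt19*, with 11 windows in all. CACCTG, on either strand, was found in 9 of the 11 windows and for 7 of the 8 genes. The same letters were in 20.2% of all 32851 windows, for 22.6% of 27025 genes and for 19.8% of the 6656 of these genes with an RPKM above 5 in any library. *Tjp1* was the gene without them, in a window from 65371195 to 65371494 that lies inside the gene bounds given above. No window lay at the 5′ end of those bounds, so that part of *Tjp1* was not searched. Of the upstream bases of 5 genes, shown to set the genes that were low in mesoderm beside the keratins and *Tjp1*, the E-box letters are in capitals and the rest in lower case, 5′ to 3′ along the gene:
*Cldn6* (chr17:23679115-23679364, + strand): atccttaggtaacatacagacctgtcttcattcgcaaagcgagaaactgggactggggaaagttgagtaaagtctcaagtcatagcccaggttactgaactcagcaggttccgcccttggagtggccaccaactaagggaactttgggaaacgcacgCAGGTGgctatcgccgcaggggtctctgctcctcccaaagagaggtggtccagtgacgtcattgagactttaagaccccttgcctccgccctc
*Cldn7* (chr11:69965171-69965420, + strand): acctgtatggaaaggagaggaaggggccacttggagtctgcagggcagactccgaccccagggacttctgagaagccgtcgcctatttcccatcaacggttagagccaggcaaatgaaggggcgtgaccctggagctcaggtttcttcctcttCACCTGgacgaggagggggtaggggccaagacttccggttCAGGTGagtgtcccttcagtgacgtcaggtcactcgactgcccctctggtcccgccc
*Krt8* (chr15:102004343-102004592, - strand): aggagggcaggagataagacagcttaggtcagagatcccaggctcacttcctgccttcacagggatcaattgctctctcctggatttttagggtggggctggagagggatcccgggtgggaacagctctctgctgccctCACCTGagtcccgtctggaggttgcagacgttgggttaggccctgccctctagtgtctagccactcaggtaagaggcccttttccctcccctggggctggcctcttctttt
*Krt18* (chr15:102027966-102028215, + strand): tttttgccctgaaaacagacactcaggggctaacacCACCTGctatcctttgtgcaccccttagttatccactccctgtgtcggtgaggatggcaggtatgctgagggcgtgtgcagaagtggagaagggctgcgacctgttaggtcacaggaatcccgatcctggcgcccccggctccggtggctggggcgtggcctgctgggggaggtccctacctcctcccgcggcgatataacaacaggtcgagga
*Tjp1* (chr7:65371245-65371494, - strand): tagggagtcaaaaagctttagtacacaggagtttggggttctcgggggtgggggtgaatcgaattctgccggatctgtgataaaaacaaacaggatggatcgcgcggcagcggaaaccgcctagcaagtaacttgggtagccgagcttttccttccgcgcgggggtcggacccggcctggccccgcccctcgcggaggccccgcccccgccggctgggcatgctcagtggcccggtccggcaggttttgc

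The E-box of *Cldn6* began 93 bases before the start, with a further match 40 bases after it, and those of *Cldn7* 97 and 57 bases before its second start. *Krt8* held it 111 bases and *Krt18* 214 bases before the start. These starts are those of the RefSeq table and can differ from the gene bounds given above. The matches of *Cldn7* and *Krt8*, and both of *Cldn6*, lie inside those bounds. The *Cldn7* window without a match is the one at the start of its bounds. *Cldn4* held it 14 bases before and 11 after the start, and *Tjp3* 17 bases before the start in 1 window and 108 in the other. The windows of the *Ocln* starts overlap and share 1 of their matches. Other motifs were less common among the genes: the grainyhead-like letters AACCNGTT were found for 0 of the 8 genes, the AP-2 letters GCCNNNGGC for 3 and the GC box GGGCGG for 5. Each was searched on both strands. They were in 2.09%, 16.6% and 35.7% of all windows and were found for 2.16%, 29.9% and 73.0% of genes with an RPKM above 5. The AP-2 and GC box letters can overlap, as in *Ocln*, where matches began 48 and 43 bases before the same start. A match of letters shows neither binding nor a cause. The E-box letters were present for *Krt8* and *Krt18*, whose mesoderm level was high, as for the junction genes, whose mesoderm level was low.

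**Figure D5:**
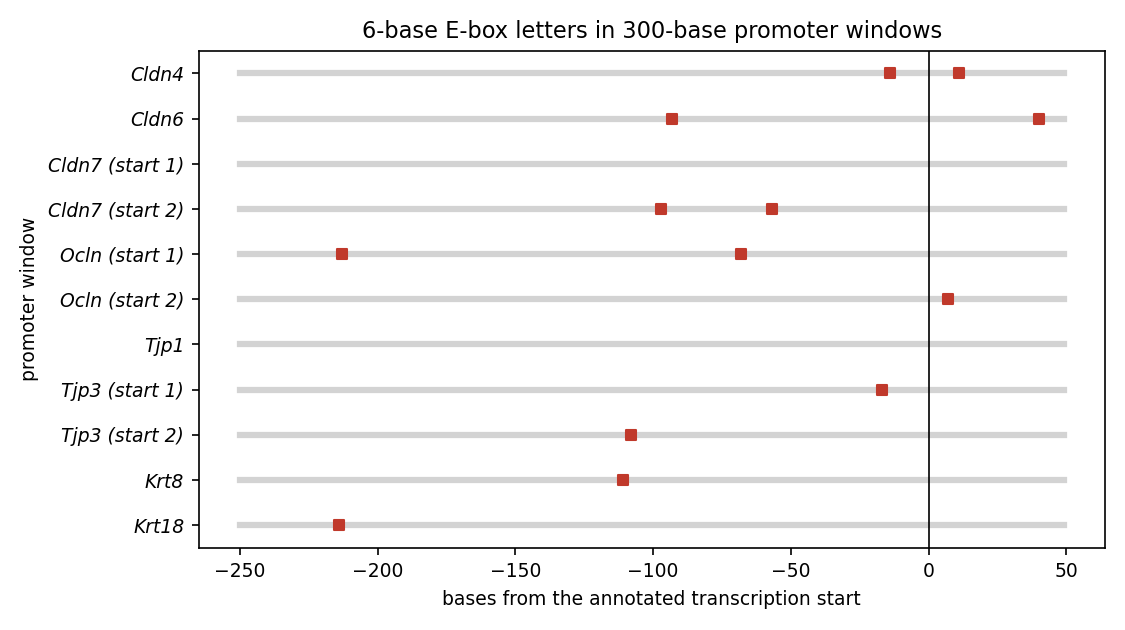
Positions of CACCTG on either strand (red squares, first base of the match) in the 11 promoter windows of 8 genes, in bases from the annotated start (line at 0); grey bars are the windows. *Tjp1* and the first *Cldn7* start have no match, and the other 9 windows have at least 1.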

How the data were processed

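RNA from each germ layer made 1 library, sequenced paired-end by the authors on Illumina HiSeq. The study mapped reads to mm10 with TopHat for its splicing analysis, and the submitters' processing notes name TopHat, mm10 and mm9. Which of them made the gene tables, and the counting program, annotation and use of strand are not given in the sources used here. The deposited counts are uniquely mapped reads per gene, without normalization. The deposited RPKM was made by the authors from the count, the gene length and the total of counted reads, with a largest relative difference of 2.03e-07 on recomputation. The deposited coverage is the percent of the gene length with reads. A gene not listed was taken to have 0 reads.

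The 9 genes, the gene lists and the motifs were chosen with earlier results of these data known. The criteria of the study (RPKM above 5, fold above 2, FDR below 0.001) were applied to each pair, by the Audic-Claverie exact test (two-sided) over every gene with reads in the pair. Without replicates the quasi-likelihood fit of edgeR could not be made, and its exact test with assumed coefficients of 0.2 and 0.4 was an alternative. Genes named besides the 9 were up to 5 per list with the highest RPKM among those called, all claudins and keratins above an RPKM of 1, and the 3 genes nearest in pattern to *Cldn6*, *Tjp1* and *Krt8*. *Fgf5*, *Hand1*, *Plac1*, *Esx1*, *Gata3*, *Ascl2*, *Elf5*, *Rhox6*, *Cer1*, *Nog* and the other node markers, *Thbd*, *Sparc*, *Col4a1*, *Lamb1*, *Apba3* and *Gm36026* were named after their values or positions were seen. Some symbols were matched through older names (*Foxf1a*, *Inadl*, *Mllt4*). Alternatives were other RPKM, fold, scaling, pseudocount, test and adjustment choices. The scripts were tested on simulated data. Positions are from GENCODE M21 (GRCm38), and near-identical copies were sought with blastn 2.17.0 at 90% identity over 100 bases or more. Python 3.11.15, SciPy 1.17.1, pandas 2.3.3, edgeR 4.0.16 and R 4.3.3 ran the computations. The depth allowed 3 reads as the limit of a count of 0, and intervals cover counting error only. Splicing and promoter usage were not analysed here. A gene that the rule names is not reported here.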

Additional observations from a re-analysis of the deposited data

How the results depend on the processing

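Of 243 combinations of gene, pair and setting for the 9 genes, 221 kept their direction and their side of the criteria. Another 18 no longer met the criteria, 4 newly met them, and none changed direction. Only scaling by TMM or the median of ratios and the pseudocount alter a log2 ratio, so the other settings could not change a direction. The count of genes called moved by over 1.5 times only in the exact test of edgeR at an assumed coefficient of 0.4, to 5 for endoderm against mesoderm, 0 for endoderm against epiblast and 3 for mesoderm against epiblast. At a coefficient of 0.2 the counts were 7, 7 and 4, and with Fold Change above 4 they were 6, 6 and 4. RPKM above 1 and no RPKM filter gave 8, 7 and 7. Scaling by TMM or by the median of ratios raised endoderm by 0.11 on the log2 scale against each other library and, like a pseudocount of 1 and Benjamini-Yekutieli adjustment, left the counts at 8, 7 and 5. Over all genes, the calls at a coefficient of 0.4 fell to 387, 331 and 60, from 2038, 2176 and 861. No biological spread was measured, so neither coefficient is an estimate. At 7 to 47 reads in mesoderm, the levels of *Tjp3*, *Cldn4*, *Ocln* and *Cldn7* carry wide counting intervals. Their log2 ratios of endoderm over mesoderm were 7.373, 5.469, 5.684 and 6.925 in that order. With a pseudocount of 1 these ratios were 3.293, 3.343, 3.483 and 5.841. That of *Tjp3* for mesoderm over epiblast went from -5.546 to -1.784. No paired analysis was possible because each germ layer has 1 library and the labels carry no replicate numbers.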

Other observations

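The genes nearest to 3 of the 9 in pattern were found by the Euclidean distance between log2 RPKM values centred over the 3 libraries, among 8785 genes with an RPKM above 5 in any library and at least 50 reads in each. With 3 libraries many genes can share a pattern, so this is a description. *Krt8* had 27 genes within a distance of 0.5, the nearest of them *Cdc42ep1* (30.2, 10.1 and 2.55 RPKM), *Pvr* (19.1, 7.36 and 1.91) and *Rin3* (25.1, 8.51 and 1.94). *Tjp1* had 3917 such genes, the nearest being *Rnf6*, *Lrig1* and *Vta1*. *Cldn6* had 0, and its nearest genes were the metallothioneins *Mt1* (682.7, 9.83 and 148.9 RPKM, distance 0.850) and *Mt2* (540.6, 8.37 and 123.1 RPKM, distance 0.918), followed by *Mtap7* (13.9, 0.359 and 4.68 RPKM, distance 1.41), which binds microtubules in epithelial cells. *Cldn7*, *Cldn4*, *Ocln* and *Tjp3* could not enter this comparison because they had fewer than 50 reads in mesoderm. The 0 for *Cldn6* and its list of nearest genes therefore depend on this limit. The log2 ratios of *Cldn7* were 6.93 for endoderm over mesoderm and -4.67 for mesoderm over epiblast, near the 7.25 and -4.84 of *Cldn6*.

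Node and notochord markers, a further cell type of the E7.5 embryo in which simple keratins are known, were all highest in the endoderm library. The 5 of them (*Noto*, *Shh*, *Foxj1*, *Chrd* and *Nog*) summed to 85.2, 6.83 and 18.5 RPKM. *Foxj1*, *Noto*, *Chrd* and *Shh* each had mesoderm lowest, and *Nog*, at 6.01, 2.53 and 1.46 RPKM, had epiblast lowest. Their part in the levels of the 9 genes was not tested.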
